A study of Homo sapiens with 4 samples.

Results

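Ribosome biogenesis factors, the nucleolar proteins that make pre-ribosomal RNA and fold it into subunits, were followed in RNA of Raji cells whose RNA polymerase II had either a mutant or a wild-type large subunit. The genes were taken from a list of 36 symbols, which leaves out the core proteins of small nucleolar ribonucleoproteins (snoRNPs) and the subunits of RNA polymerase I. Of these, 35 were matched among 51714 Ensembl gene identifiers, and BOP1 was not matched and is not analysed here. Raji is an established B cell line from a human Burkitt lymphoma that is positive for Epstein-Barr virus. In the R1810A group (2 libraries) the cells expressed, from a vector, an RPB1 with an HA tag and resistance to α-amanitin in which alanine replaced an arginine, a methylation site in the C-terminal domain. In the WT group (2 libraries) the vector coded for the same tagged and resistant subunit with the arginine intact. Both groups were polyclonal lines selected with G418 and then held in α-amanitin for 10 days, so the endogenous gene was present in both while its product was blocked by the drug. The RNA was sequenced after removal of ribosomal RNA, and the comparison asks whether loss of the methylation site changes gene expression. The labels do not tell whether replicates are separate cultures, so a p-value here speaks of the spread among 4 libraries and that spread may be technical. In bulk RNA, fewer expressing cells and less RNA per cell cannot be told apart.

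Ribosome production starts with RNA polymerase I transcribing a long precursor RNA in the nucleolus. The small subunit (SSU) processome assembles on that precursor and cuts out the RNA of the 40S subunit, while a separate set of factors, among them the PeBoW complex, matures the RNA of the 60S subunit. These genes are transcribed by RNA polymerase II, many are known targets of MYC, and Burkitt lymphoma cells carry a MYC translocation.

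Summed gene counts were 2116444 and 2081636 in the R1810A libraries and 2326036 and 2991959 in the WT libraries. The B cell markers MS4A1, CD79A, CD79B, CD22 and PAX5 summed to 4176 and 4859 CPM (the read count scaled to a common library size, with TMM factors) in R1810A and to 4860.3 and 3720.5 CPM in WT. Of 9 matched markers of other cell types, 4 had no read in any library, and all 9 summed to between 5.70 and 9.14 CPM per library. POLR2A, the gene of the replaced subunit, had 953 and 1044 CPM in R1810A libraries and 876 and 855 CPM in WT libraries (log2 fold change 0.21, SE 0.11, adjusted p = 0.655). The counts do not separate vector from endogenous transcripts and both groups carry the vector, so POLR2A is no check of the labels.

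Under TMM scaling, which cannot show a shift shared by all genes, the fold changes of the biogenesis genes centred near zero. Scaled to the deposited total reads, their median log2 fold change was -0.11, where that of all genes tested was -0.13. With edgeR's quasi-likelihood test over 10674 genes and Benjamini-Hochberg adjustment at 0.05, 0 of 35 were called, against 0.356% of all genes tested (0.347% higher and 0.00937% lower in R1810A). DESeq2 and limma-voom also called 0 of them, against 0.384% and 0.234% of all genes. At an unadjusted p under 0.05 edgeR gave 1, NCL, or 2.86% of the genes, where the share over all genes tested was 8.00%. DESeq2 also gave 1 (2.86%), against 2.61% of all genes tested, so the gap depends on the method. Log2 fold changes, R1810A over WT, ran from -0.22 to 0.54 with a median of 0.0082, beside a median of -0.0046 over all genes tested. They were positive for 19 genes and negative for 16, where 49.4% of all genes tested were positive. Of the 35 genes, 21 lay within 0.1 of zero, and the share of all genes within 0.1 was not computed.

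Mean read numbers per gene ran from 46.75 to 2248 with a median of 252.75, and 30 of the 35 genes had at least 100 reads. The 95% intervals of the log2 fold changes from the edgeR fit lay between -1 and 1 for all 35 genes. The same held for 82.5% of all genes tested, and for 97.4% of those with at least as many reads as the least covered biogenesis gene. For 31 of the 35 the interval lay within a 1.5-fold change in either direction, and the share of all genes for which this holds was not computed. The most extreme interval ends were 0.58-fold, for NOC4L, and 1.83-fold, for NCL. The intervals that reached past 1.5-fold were those of NCL, NIP7, UTP18 and NOC4L. Each interval is for a single gene, not adjusted for the number of genes. It rests on TMM scaling and on the spread among 4 libraries, which may be technical. A change over 1.5-fold in the other genes is therefore not excluded.

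**Figure D1:**
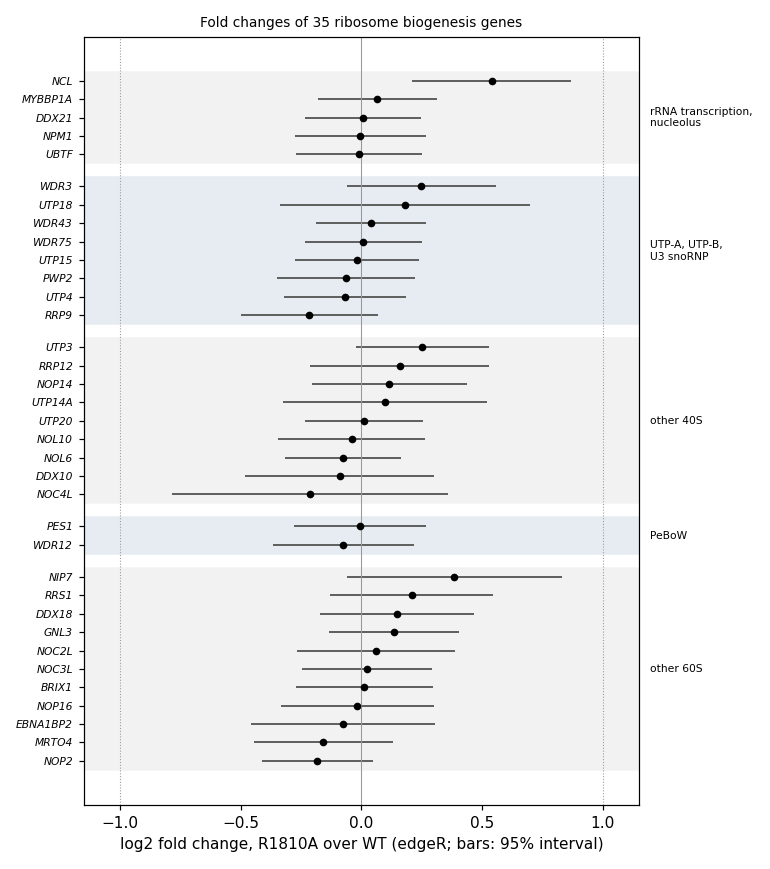
Log2 fold change of each of the 35 genes, R1810A over WT (x axis), with its 95% interval from the edgeR fit as a bar, grouped by role down the page. All bars lie between the dotted lines at -1 and 1, and the bar of NCL is the one that does not reach 0.

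At the median, libraries of a group differed by no less than the group means did. The median absolute difference between replicates was 0.08 on the log2 CPM scale in R1810A and 0.15 in WT, while the median absolute difference between group means was 0.07. A difference between 2 single libraries varies more than one between 2 means, so these values are not on the same footing. Over all genes tested the replicate medians were 0.158 in R1810A and 0.199 in WT, and the group median was 0.153. A group difference no larger than the replicate spread is thus not particular to these genes. For 8 of the 35 genes (22.9%) the group difference exceeded both replicate differences, against 26.2% of all genes tested. In CPM the groups did not overlap for 12 genes (34.3%, against 39.3% of all genes tested), with R1810A above WT for 7 (19.8% of all genes) and below for 5 (19.5%). By GENCODE 29, 16 of the genes share exon bases with another gene that had reads, and without them the median log2 fold change was 0.0067. WT replicate 2 stood a little below the other libraries, with a median deviation from the gene's mean of -0.03 on the log2 scale, against 0.02 in each R1810A library and 0.01 in WT replicate 1.

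Summed over the 35 genes, reads made up 0.522% and 0.535% of all gene counts in the R1810A libraries, and 0.532% and 0.515% in the WT libraries. Exact Clopper-Pearson 95% intervals, which cover counting error only, were 0.512 to 0.532% and 0.525 to 0.545% in R1810A, and 0.523 to 0.542% and 0.507 to 0.524% in WT. The group means were 0.528 ± 0.00936% in R1810A and 0.524 ± 0.0119% in WT (SD, n = 2 each), and the groups overlapped. The difference of 0.00468 percentage points was smaller than either SD (two-sided exact permutation p = 0.667, where 2 against 2 libraries allow no p below 0.333). DDX21 alone gave 18.0% of the reads of the 35 genes.

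Levels between genes are given as RPKM, the reads scaled to gene length and to total reads that the authors deposited. They ran from 3.77 ± 0.291 RPKM in R1810A and 3.60 ± 0.391 RPKM in WT for UTP18 to 104 ± 0.863 and 113 ± 8.30 RPKM for DDX21 (SD, n = 2 each). NOP2 followed DDX21 at 59.7 ± 1.09 RPKM in R1810A and 73.7 ± 3.38 RPKM in WT. WDR43 and UTP4 came next, at 42.5 ± 0.568 and 40.5 ± 1.74 RPKM in R1810A and at 45.0 ± 1.77 and 46.2 ± 4.03 RPKM in WT, and did not differ from each other beyond their spread in WT. At the low end, DDX18 (3.99 ± 0.0336 RPKM in R1810A, 3.91 ± 0.168 in WT) and UTP14A (3.98 ± 0.0338 RPKM in R1810A, 4.05 ± 0.162 in WT) stood beside UTP18. This order rests on the deposited gene lengths, 7851 bases for DDX18, 4045 for UTP14A and 2864 for UTP18. In mean reads these genes had 137, 71.5 and 46.75. RPKM is scaled by the deposited total reads, which moves the log2 fold change of the median gene tested to -0.13, so RPKM means in R1810A are a little lower than the CPM comparison gives.

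**Figure D2:**
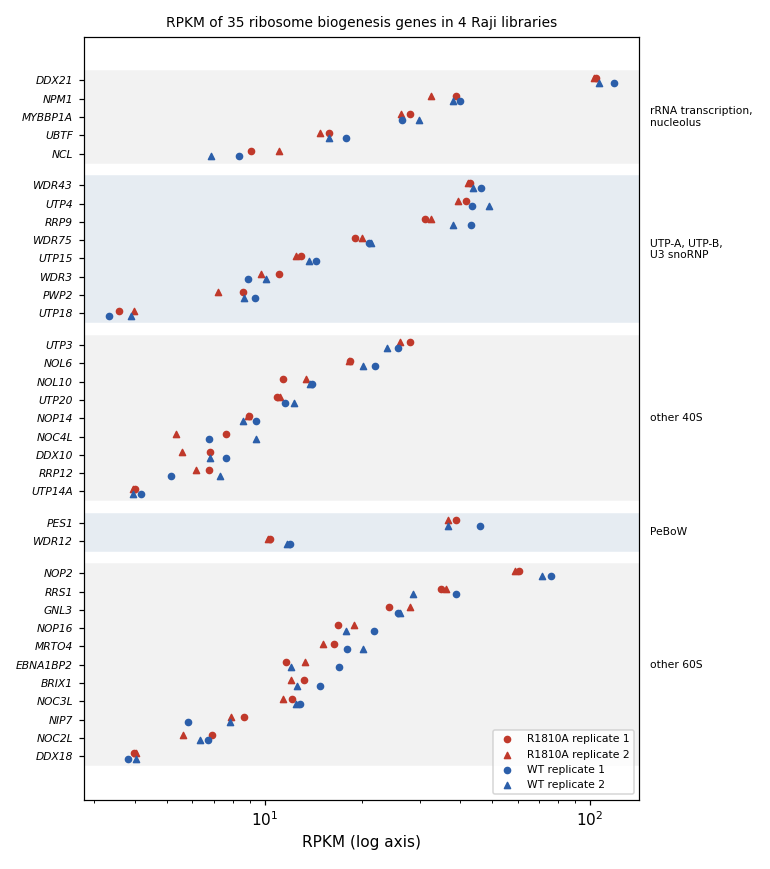
RPKM of each gene in each library on a log axis, grouped by role. The 4 libraries of a gene lie close together beside the distance between genes, which span from about 3.6 RPKM for UTP18 in WT to 113 RPKM for DDX21 in WT.

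Among factors of ribosomal RNA transcription and nucleolar structure, DDX21 and UBTF hardly differed between groups. DDX21, an RNA helicase of the nucleolus that works on polymerase I transcription and RNA processing, had 949 and 967 CPM in R1810A libraries and 1002 and 905 CPM in WT libraries (log2 fold change 0.0067, SE 0.11, 95% interval -0.23 to 0.25). The WT libraries lay on either side of the R1810A libraries. UBTF, which binds the ribosomal DNA promoter for polymerase I, had 147 and 142 CPM in R1810A and 154 and 137 CPM in WT (log2 fold change -0.01, SE 0.12). MYBBP1A, a nucleolar protein that binds MYB, had 246 and 239 CPM in R1810A and 217 and 245 CPM in WT (log2 fold change 0.07, SE 0.11). NPM1, nucleophosmin, a chaperone of the outer nucleolus, had 152 and 131 CPM in R1810A and 145 and 139 CPM in WT, again with overlap (log2 fold change -0.0037, SE 0.12). NPM1 has 38 annotated pseudogene copies, of which 11 had reads, with 3 and 8 reads in all in R1810A and 6 and 7 in WT. How reads that match several places were counted is not given in the sources used here, so the level of NPM1 is uncertain to that extent.

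NCL codes for nucleolin, an RNA-binding protein of the nucleolus that acts on the ribosomal RNA precursor, and it stood furthest from zero. It had 255 and 318 reads in the R1810A libraries against 238 and 258 in the WT libraries. In CPM these were 122 and 153 in R1810A, both above the 104 and 85.9 in WT. The log2 fold change was 0.54 (SE 0.15, 95% interval 0.21 to 0.87, unadjusted p = 0.0041), and it did not pass over all genes (adjusted p = 0.271). It was positive under all 14 alternative settings tried, from 0.36 without R1810A replicate 2 to 0.69 without R1810A replicate 1, and passed under 0 of them. The lowest adjusted p was 0.061, without WT replicate 1, and the highest was above 0.99, without R1810A replicate 2.

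An intron of NCL holds a gene of the H/ACA class of small nucleolar RNAs, which guide pseudouridylation, and this gene was also counted. Its sequence and the stretch upstream of NCL are shown because R1810A lay above WT without overlap for both genes. The same held for 19.8% of all genes tested, and neither gene was called in the edgeR test as set. A link between the 2 genes was not tested. SNORA75 lies on chromosome 2 on the strand of NCL, and its RNA is 137 bases long in GENCODE 29. The ACA box of its class, found 3 bases from the 3′ end, is in capitals.
SNORA75: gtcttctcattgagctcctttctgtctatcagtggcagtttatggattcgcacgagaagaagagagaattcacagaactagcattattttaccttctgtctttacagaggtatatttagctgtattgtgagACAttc
The 250 bases upstream of the NCL start in RefSeq (chr2:231464485-231464734, minus strand, GRCh38.p14) hold 2 GC boxes, GGGCGG or CCGCCC on the other strand, which are in capitals.
NCL upstream: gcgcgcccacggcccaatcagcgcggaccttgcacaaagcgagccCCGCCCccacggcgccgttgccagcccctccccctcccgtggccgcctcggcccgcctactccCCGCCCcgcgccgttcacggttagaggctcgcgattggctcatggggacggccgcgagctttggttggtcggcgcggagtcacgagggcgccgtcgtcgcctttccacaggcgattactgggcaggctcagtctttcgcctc

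SNORA75 had 33 and 10 reads in the R1810A libraries and 4 and 3 reads in the WT libraries. Both R1810A libraries were above both WT libraries, with R1810A replicate 1 furthest up. The log2 fold change was 2.91 (SE 0.68), not past the threshold in the edgeR test as set (adjusted p = 0.149), and 1.81 without R1810A replicate 1. It passed under 3 of 13 alternatives, with no filter (adjusted p = 0.0087), with the replicate block (0.021) and without R1810A replicate 2 (0.00025). SNORD20, in another NCL intron, had 1 and 0 reads in R1810A and 1 and 2 in WT, and SNORD82 had none. If every read of these RNAs was also counted at NCL, the reads left at NCL are 221 and 308 in R1810A and 233 and 253 in WT. That is 106 and 148 CPM in R1810A against 102 and 84.2 CPM in WT, with a log2 fold change of 0.45 (unadjusted p = 0.021, adjusted p = 0.523). Whether the gene models used for counting cover these introns is not given in the sources used here.

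**Figure D3:**
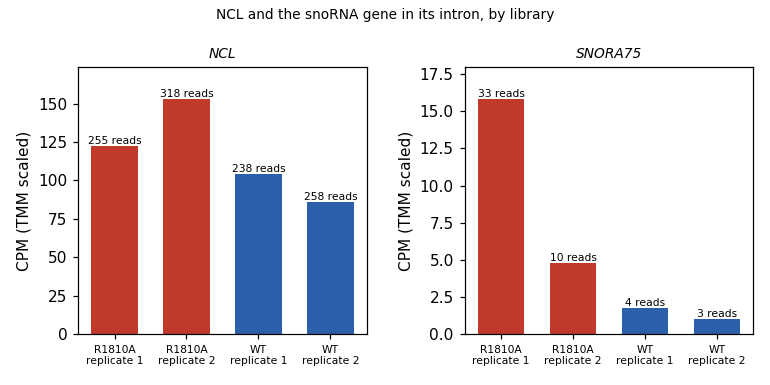
CPM of NCL (left) and SNORA75 (right) in each library, R1810A in red and WT in blue, as bars from 0 with the read number above each. NCL is at 122 and 153 CPM in R1810A and at 104 and 85.9 CPM in WT, while SNORA75 rests on 3 to 33 reads.

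GNL3 is another host of small nucleolar RNAs, and codes for nucleostemin, a GTPase of the nucleolus. It had 154 and 185 CPM in R1810A and 153 and 156 CPM in WT (log2 fold change 0.14, SE 0.12, adjusted p = 0.806), with overlap. Its nested SNORD69 had 7 and 2 reads in R1810A and 2 and 2 in WT, and all nested genes together had 7 and 2 reads in R1810A and 3 and 6 in WT. The snoRNA genes annotated inside WDR43 are not analysed here. WDR43 itself, a subunit of the UTP-A complex, was at 341 and 345 CPM in R1810A and 343 and 325 CPM in WT (log2 fold change 0.04, SE 0.10).

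UTP-A and UTP-B are the complexes that bind the precursor RNA early and found the SSU processome. Of the 8 genes of these complexes and of the U3 snoRNP, 4 had positive and 4 negative log2 fold changes, from -0.22 to 0.25, with a median of -0.0050. WDR3 of UTP-B had 88.7 and 80.8 CPM in R1810A and 66.6 and 75.6 CPM in WT, with no overlap (log2 fold change 0.25, SE 0.14, adjusted p = 0.672). RRP9, a protein of the U3 snoRNP, stood the other way with 198 and 212 reads in R1810A and 278 and 323 in WT, with no overlap in CPM (log2 fold change -0.22, SE 0.13, adjusted p = 0.684). The UTP-A subunits UTP4, UTP15 and WDR75 and the UTP-B subunits PWP2 and UTP18 overlapped between groups. UTP4 had 190.4 and 185 CPM in R1810A and 184 and 209 CPM in WT (log2 fold change -0.07, SE 0.11, adjusted p = 0.907). UTP15 had 122 and 122 CPM in R1810A, inside the 127 and 121 CPM of WT. UTP18, with 41 and 47 reads in R1810A and 39 and 60 in WT, had the fewest reads of the 35 genes and a 95% interval of -0.34 to 0.70.

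The other 40S factors had a median log2 fold change of 0.01 over 9 genes, 5 of them positive. UTP3, known in yeast as Sas10, had 112 and 107 CPM in R1810A and 95.5 and 88.6 CPM in WT, with no overlap (log2 fold change 0.25, SE 0.12, unadjusted p = 0.068, adjusted p = 0.654). NOC4L, a partner of NOP14, had 50 and 36 reads in R1810A and 45 and 83 in WT, with wide overlap in CPM (log2 fold change -0.21, SE 0.26). RRP12, known in yeast for export of the pre-40S particle, had 88.2 and 83.2 CPM in R1810A, while its WT libraries stood at 63.1 and 89.2 CPM on either side of them. NOL6, UTP20, NOL10, NOP14, DDX10 and UTP14A had log2 fold changes between -0.09 and 0.12. UTP14A had 65 and 66 reads in R1810A and 69 and 86 in WT, which is 31.2 and 31.8 CPM in R1810A against 30.2 and 28.6 CPM in WT. DDX10, a helicase, has a processed pseudogene, DDX10P2, with 23 and 24 reads in R1810A and 34 and 45 in WT, beside 88 and 74 reads in R1810A and 100 and 118 in WT at DDX10 itself. NOP14 shares exon bases with the antisense gene NOP14-AS1, which had 70 and 84 reads in R1810A and 103 and 117 in WT, and without knowledge of strand in the counting the reads of the pair cannot be told apart.

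In the PeBoW complex, PES1 had 341 and 333 CPM in R1810A, between the 378 and 301 CPM of the WT libraries (log2 fold change -0.0067, SE 0.12). Its copies PES1P1 and PES1P2 together had 28 and 34 reads in R1810A and 30 and 17 in WT, beside 693 to 905 reads at PES1. WDR12 had 72.4 and 73.6 CPM in R1810A, just below the 77.6 and 76.2 CPM in WT (log2 fold change -0.07, SE 0.13, adjusted p = 0.915). BOP1, the third subunit, is not analysed here.

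The other 60S factors were positive in 7 of 11 genes, with a median log2 fold change of 0.02. NIP7 had 39.8 and 37.5 CPM in R1810A and 25.0 and 33.6 CPM in WT, with no overlap (log2 fold change 0.39, SE 0.20, unadjusted p = 0.083, adjusted p = 0.656). NIP7 shares 957 exon bases with COG8 on the opposite strand in GENCODE 29. COG8 had 348 and 293 reads in R1810A and 353 and 393 in WT, more than the 57 to 101 reads at NIP7, and had a log2 fold change of 0.11 (SE 0.13). NOP2, which methylates cytosine in the large ribosomal RNA, had 332 and 333 CPM in R1810A, both below the 389.5 and 366 CPM in WT (log2 fold change -0.18, SE 0.10, adjusted p = 0.677). MRTO4, whose yeast counterpart holds the place of a stalk protein in the precursor, also lay lower without overlap, at 88.7 and 84.7 CPM in R1810A against 91.1 and 102 CPM in WT (log2 fold change -0.16, SE 0.13, adjusted p = 0.783). DDX18, a helicase, had 59.9 and 62.5 CPM in R1810A and 53.5 and 56.9 CPM in WT (log2 fold change 0.15, SE 0.15, adjusted p = 0.823). RRS1, known in yeast for bringing in the 5S particle, had 115 and 122 CPM in R1810A and 119 and 87.6 CPM in WT (log2 fold change 0.21, SE 0.15), so the gap between the WT libraries was larger than that between groups. EBNA1BP2, named for its binding to the viral protein EBNA1, had 78.6 and 92.9 CPM in R1810A, inside the range of 106 and 75.9 CPM in WT (log2 fold change -0.08, SE 0.17). NOC2L, named after a yeast factor of pre-60S export, had 73.4 and 61.6 CPM in R1810A and 66.6 and 62.9 CPM in WT. Its pseudogene copies together had 36 and 30 reads in R1810A and 37 and 52 in WT, beside 128 to 189 reads at NOC2L itself. NOC2L, NOC3L, BRIX1 and NOP16 had log2 fold changes between -0.02 and 0.06, all with overlap.

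**Figure D4:**
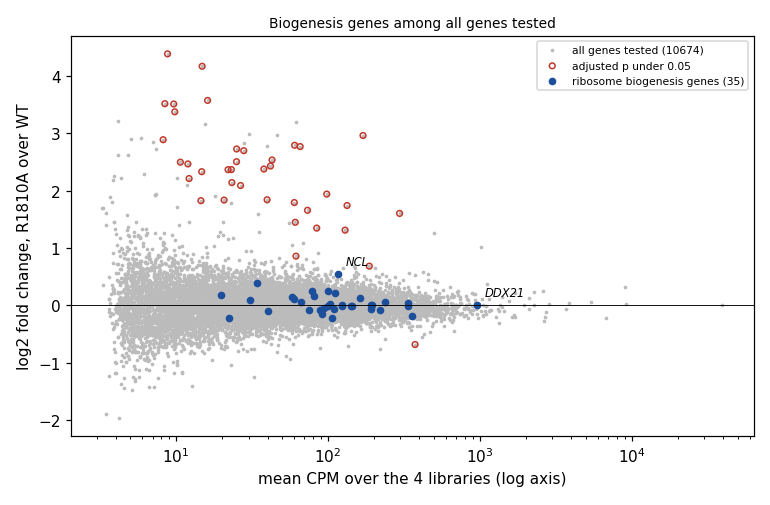
Log2 fold change of each of the 10674 genes tested (y axis) against its mean CPM over the 4 libraries (log x axis). Genes with an adjusted p under 0.05 have red rings, and the 35 biogenesis genes (blue) lie in the band around 0 with none ringed, NCL being the highest of them.

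Upstream sequence was searched for 4 motifs, and whether their shares follow base composition was not tested. RefSeq windows of 250 bases before the start, taken from the table of GRCh38.p14 with the start listed at the top for each gene, were matched for 31 of the 36 genes. The background was all 27305 genes with such a window, tested here or not, while all 31 were among the genes tested. Shares over the genes tested alone were not computed. The E-box CACGTG, a palindrome that MYC with MAX is known to bind, was present in 5 of the 31 (16.1%), against 6.49% of 27305 genes. The GC box GGGCGG, searched on both strands, was in 19 (61.3%) against 42.3%, in windows with a median GC content of 65.6% against 58.0%. The letters TATAAA on either strand were in 1 (3.23%) against 11.1%, and the 10-base palindrome known to be bound by BANP was in 1 (NOP14) against 0.410%. The 5 windows around the E-box are shown with the motif in capitals, as the sites that a MYC target would be looked up by.
EBNA1BP2 (chr1:43172792-43172817, minus strand): tattgttggcCACGTGggatcgaaga
UTP14A (chrX:129905914-129905938, plus strand): accttgggcCACGTGgaaaccaggg
UTP18 (chr17:51260447-51260472, plus strand): gagtgctggtCACGTGgcaagaggct
UTP20 (chr12:101280085-101280104, plus strand): tttttccgtcCACGTGaccc
UTP4 (chr16:69132623-69132648, plus strand): agcgcgcgcgCACGTGgggccggggc
The log2 fold changes of these 5 genes were -0.08, 0.10, 0.18, 0.01 and -0.07 in the order shown. A match of letters is not a measured binding site. MYC itself had 415 and 390.2 CPM in R1810A and 379 and 530.3 CPM in WT, with overlap (log2 fold change -0.18, SE 0.15, adjusted p = 0.783). Its WT libraries stood on either side of those of R1810A. None of the 8 genes of MYC and its partners passed with edgeR, MGA (0.19, SE 0.11) and MNT (0.39, SE 0.29) having the smallest p, and 0 had an unadjusted p under 0.05.

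Other genes of ribosome production were read in the same fit. Of 78 tested 40S and 60S assembly factors outside the 35, 0 passed in either direction with edgeR, 3 had a positive and 1 a negative log2 fold change at an unadjusted p under 0.05 (8.00% of all genes tested), and the median was 0.02. The smallest p values among 60S factors were those of MDN1, a large ATPase that remodels the pre-60S particle, and RRP15. MDN1 had 244 and 264 CPM in R1810A and 172 and 188 CPM in WT, with no overlap (log2 fold change 0.49, SE 0.11, adjusted p = 0.135). RRP15 had 78.6 and 87.1 CPM in R1810A and 57.4 and 63.6 CPM in WT (log2 fold change 0.45, SE 0.14, adjusted p = 0.383). Among 40S factors these were PDCD11 (0.24, SE 0.12, adjusted p = 0.654) and LTV1 (0.31, SE 0.17, adjusted p = 0.674).

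The protein partners of the snoRNAs and of polymerase I also held no called gene with edgeR. The list of 10 snoRNP proteins and related nucleolar factors had a median log2 fold change of 0.03. In it, DKC1, the pseudouridine synthase, had 164 and 188 CPM in R1810A and 151 and 148 CPM in WT (0.23, SE 0.12, adjusted p = 0.654). TCOF1, which is not a snoRNP core protein, was at 0.22 (SE 0.14). The 14 genes of polymerase I and its initiation factors had a median of -0.0055, with POLR1H at 0.66 (SE 0.37) on 16 and 19 reads in R1810A and 13 and 15 in WT, and TAF1B at 0.34 (SE 0.24). Neither list had a member at an unadjusted p under 0.05. The 77 tested cytosolic ribosomal protein genes had a median of 0.03 and 0 called. At an unadjusted p under 0.05, 8 of the 77 were positive and 2 negative. That is a larger share than the 8.00% over all genes tested (527 positive and 327 negative of 10674). RPL13A, a protein of the 60S subunit, was at 0.52 (SE 0.11, adjusted p = 0.116). These lists are set beside the biogenesis genes as a description, and no difference between lists was tested.

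**Figure D5:**
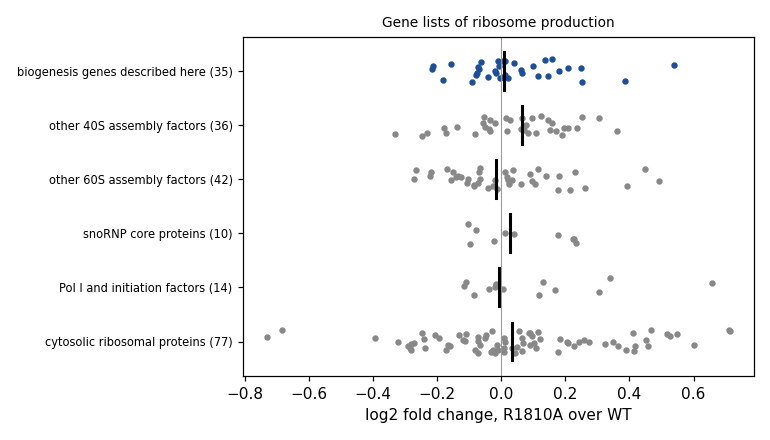
Log2 fold change, R1810A over WT, of each tested gene in 6 lists of ribosome production, 1 point per gene with the list's median as a black bar and its number of genes in brackets. All 6 medians lie between -0.02 and 0.064, and the ribosomal protein genes have the widest range.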

How the data were processed

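Per the submitters' processing notes, Bowtie was the authors' aligner and hg19 their build. No source used here names a counting program or annotation release, or says whether strand was used or what was done with reads of several matches. The deposited files hold raw read counts per Ensembl gene, per the file headers, with RPKM, gene length and a total read number. The deposited RPKM values equalled count over length and total reads within a relative tolerance of 0.0001, and serve only to set levels between genes. Gene symbols, found for 40926 identifiers, were looked up in a name table and in GENCODE 29 (GRCh38), whose coordinates served only for nesting and overlap. The fit used edgeR 4.0.16 in R 4.3.3 (filterByExpr, TMM, glmQLFit, glmQLFTest, group as the only term) on all genes, with the SE taken as the absolute log2 fold change over the square root of F, and intervals from the fit's t quantiles. It was run on simulated data with planted changes of 2-fold or more, so its recovery of smaller changes was not tested. DESeq2 1.42.0, limma-voom (limma 3.58.1), other scalings and filters, and leaving out each library were alternatives, and subtracting nested small RNA reads and leaving out overlapping genes were added after the data were seen. The genes, lists, motifs and the naming rule were chosen with earlier results of these data known. By that rule, values in every library are given for called genes, the 10 of smallest p, the 4 of highest RPKM, the 3 of fewest reads, hosts of small RNAs with reads and genes with pseudogene copies, while other lists name their called genes or else the 2 of smallest p, with POLR2A and MYC added. Of these, 1 ribosomal protein gene and 1 B cell marker are not reported here. RRP12, EBNA1BP2, UTP20, UTP15, WDR12, NOP14, UBTF and MYBBP1A are named outside it, with their values seen. Replicate numbers do not pair the libraries by any label, and 2 pairs cannot show that they do.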

Additional observations from a re-analysis of the deposited data

How the results depend on the processing

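Of the biogenesis genes, 0 passed in either direction under each of the 14 alternative settings. The count of all genes called, 38 with edgeR as set, was 85 with no filter, 77 with the replicate block, 25 with limma-voom and between 2 and 153 with a library left out (2 without WT replicate 2, 153 without WT replicate 1). The number of biogenesis genes at an unadjusted p under 0.05 was 3 (8.57%, against 13.1% of all genes tested) with the deposited total reads. With a library left out it was between 0 (without R1810A replicate 2, against 5.01% of all genes) and 5 (without WT replicate 2, 14.3% against 10.5% of all genes). Their median log2 fold change was -0.11 with the deposited total reads, where the median of all genes tested was -0.13, and lay between -0.0042 and 0.072 when a library was left out. It was 0.0084 with the replicate block. The share of counts differed by -0.0213 percentage points over the deposited total reads (exact permutation p = 0.333), and there the groups did not overlap. Reads in any gene made up 52.7% and 50.4% of those totals in R1810A and 56.8% and 55.4% in WT, also without overlap. A lower share over the deposited totals is thus not particular to the biogenesis genes. Of 20 named genes, 9 kept the sign of their log2 fold change under every setting. With the deposited total reads the values were -0.12 for DDX21, -0.059 for NOC2L, -0.023 for UTP14A and -0.082 for WDR43. DDX21 was at -0.0049 with no filter, and PES1 at 0.0048 with limma-voom. Leaving out each library gave values on both sides of zero for 10 genes, between -0.22 and 0.022 for DDX10, -0.068 and 0.080 for DDX21, -0.0042 and 0.26 for GNL3, -0.073 and 0.18 for NOC2L, -0.47 and 0.064 for NOC4L, -0.12 and 0.095 for NPM1, -0.17 and 0.16 for PES1, -0.0064 and 0.43 for RRS1, -0.16 and 0.025 for UTP4, and -0.00081 and 0.077 for WDR43. The cause was not tested. The lone library then left in a group is assumed to vary like the other group. No label says that replicate numbers pair the libraries, and same-numbered libraries had a correlation of deviations of -0.04, which over 2 pairs does not decide it. The replicate block called 0 biogenesis genes. The fewest reads were at UTP18 (SE 0.24) and NOC4L (SE 0.26), where the intervals were widest.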
